A study of Mus musculus with 12 samples.

Results

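A set of 10 genes that mark spermatogonia was examined: *Id4*, *Gfra1*, *Ret*, *Bcl6b*, *Etv5*, *Nanos2*, *Zbtb16*, *Lin28a*, *Nanos3* and *Kit*, listed here from the stem cell pole to differentiating spermatogonia. They were chosen by gene symbol, and all 10 had an entry among the 23502 entries of the testis table and among the 51826 of the sperm table. All 10 passed the filter on low counts in testes and 8 passed it in sperm. The RNA came from 4 groups of 3 replicates each. The testis groups were whole testes of mice at postnatal day 16 (P16), WT or with a conditional knockout of *Xap5* (*Xap5* cKO) made by crossing floxed *Xap5* mice with Stra8-EGFPCre mice. The sperm groups were mature sperm from the cauda epididymis of day 56 (P56) WT mice and of mice carrying a CRISPR/Cas9 knockout of *Xap5l* in all cells (*Xap5l* KO). The floxed and knockout alleles were made on the C57BL/6J background. The Cre was described as a knockin at *Stra8*, a gene that is switched on in differentiating spermatogonia and early meiotic cells, so that stem cells may keep *Xap5*. The labels call the control testes WT and name no allele for them, while the study elsewhere describes its controls for the cKO males as *Xap5* fl/Y.

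Spermatogonia are the mitotic germ cells at the base of the seminiferous tubule. Their stem cells depend on glial cell line-derived neurotrophic factor (GDNF) from somatic cells, which binds the co-receptor GFRA1 and signals through the tyrosine kinase RET. ID4, BCL6B, ETV5, ZBTB16 (also called PLZF) and NANOS2 are nuclear or RNA-binding regulators of the undifferentiated state, LIN28A and NANOS3 are found mainly in progenitors, and the receptor KIT, bound by KIT ligand, marks cells that have begun to differentiate and will enter meiosis.

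In P16 *Xap5* cKO testes the 10 genes did not move together. *Id4*, *Lin28a*, *Zbtb16* and *Kit* fell, *Etv5* and *Gfra1* rose, and *Ret*, *Bcl6b*, *Nanos2* and *Nanos3* did not pass the test. In *Xap5l* KO sperm none of the 8 tested genes passed it. Genes passed when edgeR's quasi-likelihood test gave a Benjamini-Hochberg adjusted p-value under 0.05, and were called when the fold change was also above 2. Values are CPM, a gene's count scaled to a common library size after TMM normalization, and a standard error (SE) belongs to the log2 fold change of knockout over WT. Since 0.1 is the smallest p-value an exact permutation test can reach here, the fit across all genes was used.

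Promoter sequences were available in RefSeq (GRCm38.p6) for 7 of the 10 genes and are shown for 4 that moved in testes, so that the stretch in front of a gene that rose can be read beside those of genes that fell. Each sequence ends before the first annotated transcript start of both RefSeq and GENCODE. Capitals mark the GC box core, GGGCGG or CCGCCC on the other strand. The stretch of *Id4* lies at chr13:48260866-48261115 on the plus strand, that of *Lin28a* at chr4:134018842-134019066 on the minus strand, that of *Kit* at chr5:75574737-75574915 on the plus strand and that of *Etv5* at chr16:22439720-22439820 on the minus strand.
Id4: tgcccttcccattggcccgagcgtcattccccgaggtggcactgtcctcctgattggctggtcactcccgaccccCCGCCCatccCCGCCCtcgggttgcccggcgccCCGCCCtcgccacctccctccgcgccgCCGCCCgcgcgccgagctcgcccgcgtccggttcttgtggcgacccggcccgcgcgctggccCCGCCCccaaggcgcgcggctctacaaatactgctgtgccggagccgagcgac
Lin28a: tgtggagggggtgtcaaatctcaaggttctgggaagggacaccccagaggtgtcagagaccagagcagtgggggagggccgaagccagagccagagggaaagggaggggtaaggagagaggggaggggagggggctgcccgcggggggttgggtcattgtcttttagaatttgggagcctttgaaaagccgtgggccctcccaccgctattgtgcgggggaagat
Kit: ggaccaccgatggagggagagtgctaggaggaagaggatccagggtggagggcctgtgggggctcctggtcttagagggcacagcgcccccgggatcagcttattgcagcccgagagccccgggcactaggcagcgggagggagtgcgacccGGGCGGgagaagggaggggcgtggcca
Etv5: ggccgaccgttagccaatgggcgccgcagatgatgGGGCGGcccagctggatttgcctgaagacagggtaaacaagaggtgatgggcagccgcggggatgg

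The *Id4* stretch held 5 GC box cores in 250 bases, that of *Kit* 1 in 179, that of *Etv5* 1 in 101 and that of *Lin28a* 0 in 225. Over windows of 300 bases, from 250 before to 50 after the start, 5 of the 7 genes held the core (*Id4*, *Etv5*, *Lin28a*, *Nanos3* and *Kit*), against 38.2% of the 27025 genes with a window. The longer form GGGCGGGG, or CCCCGCCC on the other strand, contains the core, was in 19.6% of these genes and occurred in 1 of the 7, *Id4*, 4 times. The core thus occurred in the window of *Etv5*, which rose, and in those of *Id4*, *Lin28a* and *Kit*, which fell. *Gfra1* and *Nanos2* had neither form in their windows, and *Ret*, *Bcl6b* and *Zbtb16* had no entry.

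Library totals ranged from 32251198 to 36759054 counts in testes and from 38881197 to 52308452 in sperm. The deleted gene of the sperm comparison, *Xap5l* (listed as *Fam50b*), was counted 574, 440 and 419 times in the WT sperm libraries and 18, 23 and 8 times in the KO libraries. In testes *Xap5l* was also lower, with 532, 539 and 197 counts in WT and 6, 0 and 7 counts in *Xap5* cKO libraries. Its log2 fold change there was -6.48 (edgeR adjusted p = 8.09e-05), and the part of the cell mix in it was not tested. *Xap5* (listed as *Fam50a*) was counted 819, 811 and 988 times in the WT testis libraries and 673, 616 and 651 times in the cKO libraries. It was 1.26-fold lower in cKO testes (edgeR adjusted p = 0.0495). This did not pass with RLE size factors, nor without WT replicate 1, WT replicate 3 or any cKO replicate, where the adjusted p-values reached 0.170. Whole testes include somatic cells that keep the gene, and their part in the remaining counts was not tested. WT testis replicate 3 stood closer to the cKO libraries than the other WT libraries did. Its correlation with them across genes, on log2 CPM, was 0.928 to 0.933, against 0.897 to 0.903 for replicates 1 and 2. Counts of called genes below are also given without it where they change.

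The cell mix of the testes differed between genotypes, and bulk RNA cannot tell fewer cells of a type from less RNA per cell. The 10 genes of Sertoli cells, the somatic nurse cells that make much of the GDNF and KIT ligand, summed to between 1579 and 1666 CPM in WT and between 2741 and 2795 CPM in cKO libraries, and 9 of the 10 passed the test as higher. The most abundant was *Inha*. The 7 genes of pachytene spermatocytes summed to between 1272 and 2510 CPM in WT, with 1272 in replicate 3, and to between 178 and 283 CPM in cKO libraries, and all 7 were called lower. Of the 7 genes of leptotene and zygotene spermatocytes, all passed as lower, with sums of 1802 to 2146 CPM in WT and 889 to 1252 CPM in cKO libraries. Leydig cell genes passed as higher in 4 of 7, leukocyte genes in 3 of 5, endothelial genes in 2 of 5 and peritubular myoid genes in 2 of 5. Their summed CPM lay between 268 and 456 in WT and 484 and 931 in cKO libraries for Leydig cells, 47.7 to 73.8 and 103 to 132 for leukocytes, 70.4 to 83.1 and 110 to 117 for endothelium, and 499 to 656 and 710 to 778 for myoid cells. Genes of elongating spermatids were near 0, with sums of at most 0.604 CPM and *Prm2* at 0 in every library. The part of this cell mix in the results below was not tested, beyond the scaling to Sertoli genes given further on.

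**Figure D1:**
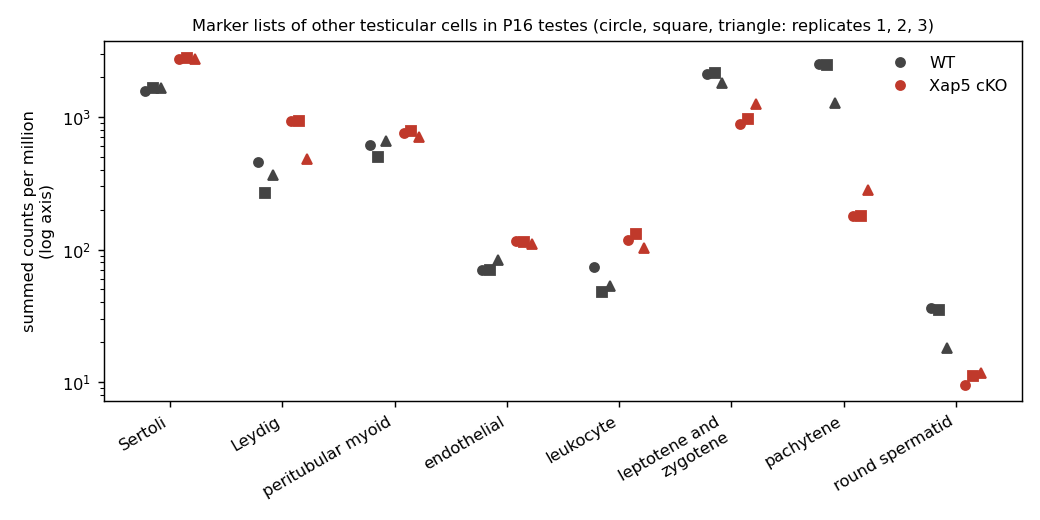
Summed CPM (log axis) of marker gene lists for other testicular cells, with 1 point per library, WT in grey and Xap5 cKO in red. Sertoli sums are higher in every cKO library (2741 to 2795 against 1579 to 1666 CPM) and pachytene sums lower (178 to 283 against 1272 to 2510 CPM), with WT replicate 3 the lowest of the WT libraries.

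In *Xap5* cKO testes 6 of the 10 spermatogonial genes passed the test, 4 lower and 2 higher. Of all 16821 tested genes, 28.1% passed as lower and 25% as higher, so that a share of 4 and 2 in 10 is close to that of the testis table as a whole. With a fold change above 2, 2 of the 10 were called lower (*Id4* and *Lin28a*) and 0 higher, against 10.9% and 4.15% of all tested genes. Using unadjusted p-values in edgeR also left 0 of the 10 higher with a fold change above 2, and DESeq2 called 2 lower and 0 higher. The median log2 fold change of the 10 was -0.36, against -0.01 over all tested genes.

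Among the regulators of stem cell identity, *Id4*, which encodes an inhibitor of DNA binding (chromosome 13, 48261228 to 48266026), fell most. It stood at 78.9, 77.1 and 50.3 CPM in the WT libraries and at 21.7, 26.4 and 22.8 CPM in the cKO libraries. The groups did not overlap, and WT replicate 3, which was also lowest in pachytene genes, was the WT library nearest to the cKO level. *Zbtb16*, *Lin28a* and *Kit* were instead highest in that WT library. The part of spermatocytes in the *Id4* value was not tested. The log2 fold change was -1.54 (SE 0.172, edgeR adjusted p = 0.000101), a level 2.91-fold lower. *Id4* shares exonic bases with A330033J07Rik and Gm49291 on the opposite strand, and the use of strand in counting is not stated. Neither has an entry in the testis table, and A330033J07Rik had 23 to 36 counts per library in sperm.

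The GDNF receptor genes did not follow *Id4*. *Gfra1*, the co-receptor (chromosome 19, 58235604 to 58455909), had 9.11, 9.30 and 9.92 CPM in WT and 14.5, 10.7 and 16.5 CPM in cKO testes. Every cKO library lay above every WT library, and the cKO libraries were more spread out, with replicate 2 near WT. *Gfra1* rose with a log2 fold change of 0.56 (SE 0.188, edgeR adjusted p = 0.0321), 1.47-fold. It did not pass without WT replicate 1, WT replicate 2, cKO replicate 1 or cKO replicate 3, where the adjusted p-values reached 0.120 and the log2 fold changes lay between 0.41 and 0.55. *Gfra1* shares exonic bases with Gm16277 on the opposite strand, which has no testis entry and had 0 to 3 counts per library in sperm.

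*Ret*, the signalling receptor (chromosome 6, 118151745 to 118197718), had 13.4, 17.4 and 22.1 CPM in WT and 14.5, 16.3 and 20.02 CPM in cKO testes. The groups overlapped over nearly their whole range. The log2 fold change was -0.06 with a 95% interval of -0.52 to 0.40 (edgeR adjusted p = 0.823).

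*Bcl6b*, a transcriptional repressor that responds to GDNF in cultured stem cells (chromosome 11, 70224128 to 70229798), had 2.92, 3.37 and 4.002 CPM in WT and 4.601, 3.61 and 3.55 CPM in cKO testes. The groups overlapped, and the log2 fold change of 0.19 had a 95% interval of -0.37 to 0.75 (edgeR adjusted p = 0.541). The testis table holds a second entry for it, Bcl6b-2, counted 89, 111 and 142 times in WT and 144, 118 and 111 times in cKO testes, next to 98, 123 and 144 and 148, 123 and 117 for *Bcl6b* itself. The near-equal counts show that the 2 entries give nearly the same measurement, and they were kept apart.

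*Etv5*, an ETS family transcription factor that also responds to GDNF and is expressed in Sertoli cells as well as in stem cells (chromosome 16, 22381309 to 22439719), moved opposite to *Id4*. It had 54.8, 46.9 and 46.6 CPM in WT and 86.1, 108 and 93.0 CPM in cKO testes, without overlap. It rose with a log2 fold change of 0.95 (SE 0.105, edgeR adjusted p = 9.57e-05), 1.93-fold, just short of the threshold for a call, which it crossed without WT replicate 1 or without cKO replicate 1. The Sertoli list moved by a median log2 fold change of 0.72 in the same libraries, and its part in the *Etv5* value was not tested.

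*Nanos2*, an RNA-binding repressor of differentiation restricted to a few stem and early progenitor cells (chromosome 7, 18987400 to 18988962), was near the lower end of what these libraries measure. It was counted 16, 37 and 27 times in WT and 11, 14 and 32 times in cKO testes. The groups overlapped, and the log2 fold change of -0.38 had a 95% interval of -1.71 to 0.96 (edgeR adjusted p = 0.617). This interval included a 2-fold fall and ended just short of a 2-fold rise, so changes of that size were poorly resolved for *Nanos2* at this depth. It shares exonic bases with Gm45058 on the opposite strand.

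Of the genes of the progenitor pool, *Zbtb16*, a zinc finger repressor that marks undifferentiated spermatogonia (chromosome 9, 48654297 to 48836222), had 39.7, 43.5 and 59.3 CPM in WT and 30.6, 29.3 and 30.6 CPM in cKO testes. All WT libraries lay above the cKO libraries, which lay close together. It fell with a log2 fold change of -0.66 (SE 0.146, edgeR adjusted p = 0.00455), 1.58-fold. *Lin28a*, which encodes an RNA-binding protein that blocks maturation of let-7 microRNAs (chromosome 4, 134003330 to 134018841), had 41.7, 45.5 and 56.9 CPM in WT and 22.5, 24.0 and 22.3 CPM in cKO testes. The groups again did not overlap, and WT replicate 3 was the highest. *Lin28a* fell with a log2 fold change of -1.07 (SE 0.127, edgeR adjusted p = 0.000138), 2.096-fold, and without WT replicate 3 by 0.93 on the log2 scale, which is under the threshold for a call. Then *Id4* alone of the 10 was called lower, in a fit with 2839 calls over all genes against 2535 with all libraries. *Lin28a* shares exonic bases with Gm13061 on the opposite strand.

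*Nanos3*, the paralogue of *Nanos2* that is found in progenitors (chromosome 8, 84173731 to 84185217), was counted 46, 51 and 97 times in WT and 51, 60 and 32 times in cKO testes. The groups overlapped, with WT replicate 3 the highest library and cKO replicate 3 the lowest. The log2 fold change was -0.34 with a 95% interval of -1.28 to 0.60 (edgeR adjusted p = 0.519), and it was 0.055 without WT replicate 3.

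*Kit*, the gene at the differentiating end of the order (chromosome 5, 75574916 to 75656722), had 116, 111 and 146 CPM in WT and 88.3, 72.1 and 77.9 CPM in cKO testes. No cKO library reached the lowest WT library. *Kit* fell with a log2 fold change of -0.65 (SE 0.117, edgeR adjusted p = 0.00146), 1.57-fold. Leydig cells also express *Kit*, and 4 of the 7 Leydig genes were higher in cKO testes while *Kit* was lower.

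**Figure D2:**
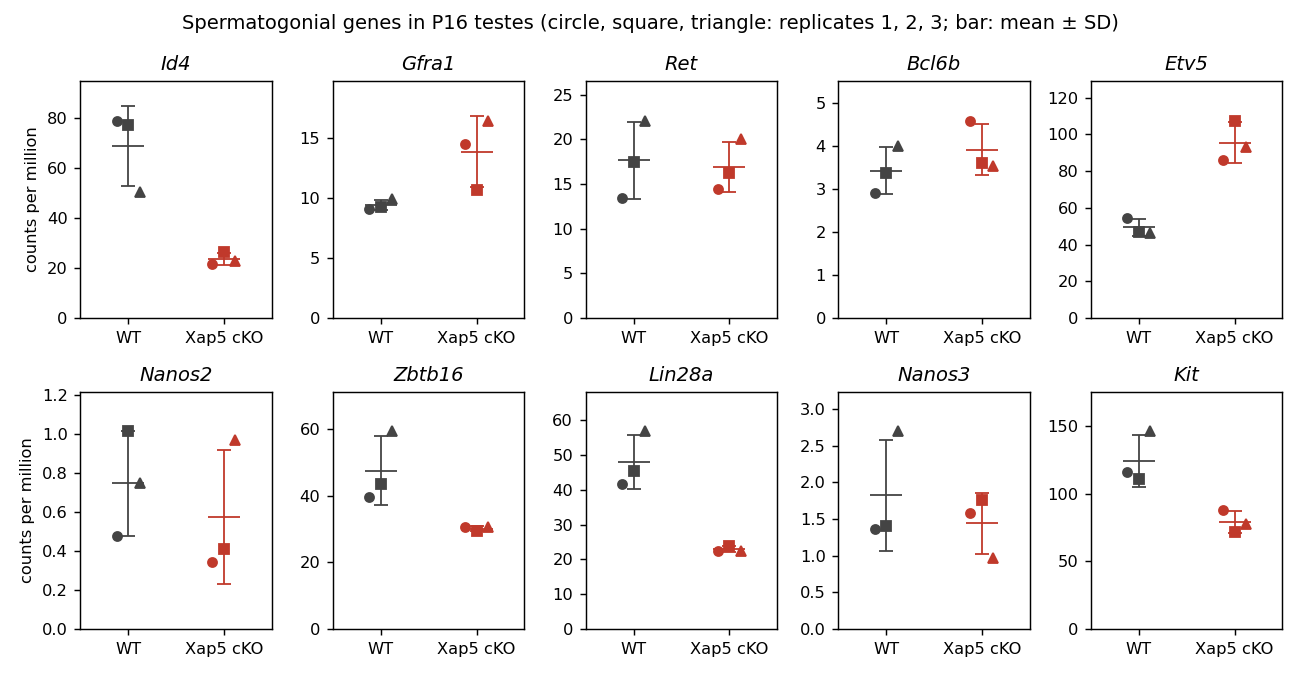
CPM of the 10 genes in each testis library, with 1 panel per gene, each on its own axis from 0, and the mean ± SD of 3 libraries as a bar. WT points lie above Xap5 cKO points for Id4, Zbtb16, Lin28a and Kit and below them for Gfra1 and Etv5, and the groups overlap for Ret, Bcl6b, Nanos2 and Nanos3.

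Because Sertoli genes took a larger share of cKO libraries, the fit was repeated with libraries scaled to the 10 Sertoli genes instead of TMM. This scaling shifted the median log2 fold change of all tested genes from -0.01 to -0.73. On it *Etv5* stood at 0.23 (SE 0.130, edgeR adjusted p = 0.155) and *Gfra1* at -0.16 (adjusted p = 0.500), so that neither passed, and both lay above the shifted median. *Ret* and *Nanos3* then passed as lower, with log2 fold changes of -0.76 (adjusted p = 0.00605) and -1.04 (adjusted p = 0.0435), and *Bcl6b* turned to -0.52 without passing (adjusted p = 0.0796). *Id4*, *Lin28a*, *Zbtb16* and *Kit* stood at -2.27, -1.78, -1.36 and -1.36, all below the shifted median, and 5 of the 10 were called lower. Over all 16821 tested genes this scaling gave 5470 calls, of which 1.41% were higher, so the count of the 10 shares a shift of the whole table. *Ret* was close to the shifted median.

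The ratio of counts of 2 genes within a library does not depend on the scaling. For every *Gfra1* count there were 5.07 to 8.66 counts of *Id4* in WT libraries and 1.38 to 2.46 in cKO libraries. The same ratio ran from 4.58 to 5.73 in WT and from 1.35 to 2.24 in cKO libraries for *Lin28a*, and from 11.9 to 14.8 and from 4.73 to 6.73 for *Kit*. For *Zbtb16* it was 4.36 to 5.98 in WT and 1.86 to 2.73 in cKO libraries. All 4 ratios separated the genotypes. This followed from the CPM values above, where each of the 4 genes was lower and *Gfra1* higher in every cKO library. The rise of *Gfra1* enters each ratio, so the ratios are no separate test of the 4 falls. For *Etv5* the ranges overlapped, with 4.70 to 6.01 in WT and 5.64 to 10.04 in cKO libraries, as they did for *Ret*, with 1.47 to 2.23 and 0.998 to 1.52.

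**Figure D3:**
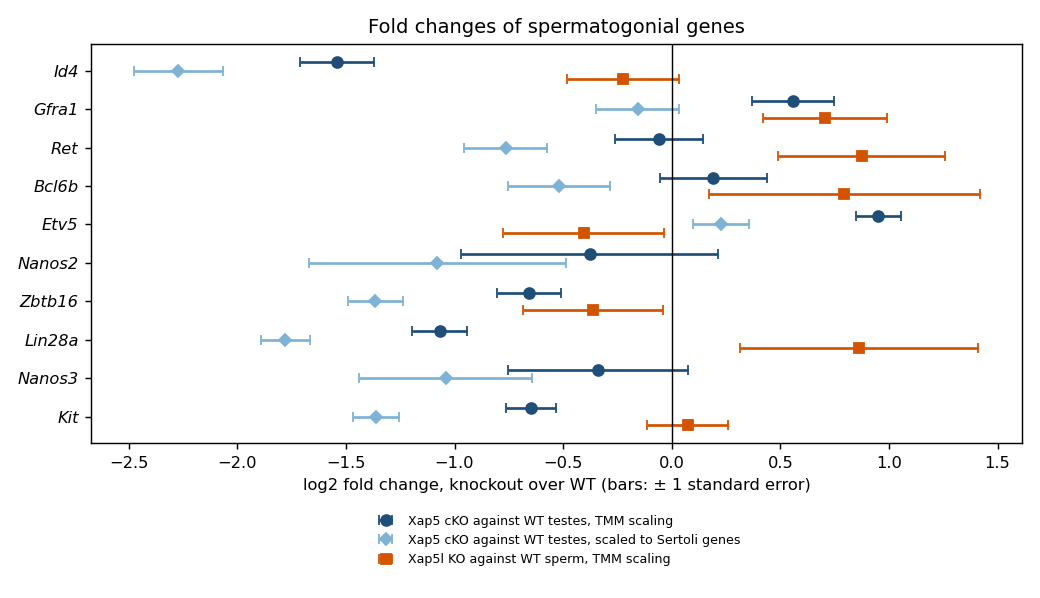
Log2 fold changes with bars of ± 1 SE for the 10 genes in stem to differentiating order: Xap5 cKO against WT testes with TMM scaling (circles), the same libraries scaled to Sertoli genes (diamonds) and Xap5l KO against WT sperm (squares, 8 genes). Id4 is lowest in testes at -1.54 and Etv5 highest at 0.95 with TMM, and scaling to Sertoli genes moves each testis value to the left.

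Per kilobase of exon, the order of the 10 genes differed between the genotypes. In WT testes *Id4* came first with a mean level of 17.9 CPM per kb, followed by *Kit* with 14.0, *Etv5* with 12.1, *Lin28a* with 12.02 and *Zbtb16* with 8.99. Neighbours among these 5 overlapped in their library ranges, and a gap separated *Zbtb16* from *Ret* with 2.61, *Nanos3* with 1.97 and *Gfra1* with 1.72 CPM per kb, which overlapped in turn. *Bcl6b* with 0.923 and *Nanos2* with 0.478 CPM per kb stood apart at the bottom. In cKO testes *Etv5* came first with 23.3 CPM per kb, clear of *Kit* with 8.92, and *Id4*, *Lin28a* and *Zbtb16* followed with overlapping ranges around means of 6.14, 5.73 and 5.71. *Gfra1* and *Ret* overlapped at 2.54 and 2.50 CPM per kb, ahead of *Nanos3* with 1.56, *Bcl6b* with 1.05 and *Nanos2* with 0.368.

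Around these 10 genes, 46 companion genes in 3 lists were read in the same fit, and 45 were tested in testes. Of 12 genes for niche ligands and receptors, 8 passed as higher and 0 as lower, against 25% and 28.1% of all tested genes. With unadjusted edgeR p-values or with DESeq2, 0 of the 12 were lower. Their median log2 fold change was 0.93. *Gdnf*, the ligand of GFRA1 and RET, had 8.99, 9.82 and 15.1 CPM in WT and 32.2, 26.6 and 38.7 CPM in cKO testes, without overlap. It rose with a log2 fold change of 1.52 (SE 0.218, edgeR adjusted p = 0.000391). *Kitl*, which encodes KIT ligand, had 190, 188 and 250 CPM in WT and 456, 450 and 425 CPM in cKO testes and rose with a log2 fold change of 1.08 (SE 0.105, adjusted p = 5.24e-05). Both ligand genes were thus higher in each cKO library, as was the receptor gene *Gfra1*, while *Kit* was lower and *Ret* did not pass. Relative to Sertoli genes the rise was smaller, 0.82 for *Gdnf* (adjusted p = 0.00593) and 0.37 for *Kitl* (adjusted p = 0.00429), and both still passed. *Fgf2*, a further growth factor of stem cells, rose with a log2 fold change of 1.48 and *Csf1r*, the macrophage receptor for CSF1, with 1.25 (edgeR adjusted p = 3.07e-05 and 0.000255). The testis table holds 3 further entries named for *Fgf2*, which were kept apart and whose values are not given here. *Fgf2* shares exonic bases with Gm43439 on the same strand and with *Nudt6* on the opposite strand.

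Of 22 other genes of undifferentiated spermatogonia, 21 were tested. Among these 7 passed as lower and 3 as higher, against 28.1% and 25% of all tested genes. The median log2 fold change of the 21 was -0.40. *Lin28b*, the paralogue of *Lin28a*, had 48.7, 51.4 and 55.9 CPM in WT and 15.2, 17.0 and 16.7 CPM in cKO testes and fell with a log2 fold change of -1.67 (SE 0.102, edgeR adjusted p = 1.06e-05). *Upp1*, a uridine phosphorylase, fell with -1.56 (adjusted p = 0.00143). In the other direction *T*, the T-box factor brachyury, rose from 0.298, 0.439 and 0.473 CPM in WT to 1.09, 1.41 and 1.73 CPM in cKO testes, a log2 fold change of 1.79 (SE 0.457, adjusted p = 0.00912). Its level was low in all 6 libraries, with 10 to 57 counts. Relative to Sertoli genes its log2 fold change was 1.09 and did not pass (adjusted p = 0.0607).

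Of 12 other genes of differentiating spermatogonia, 9 passed as lower and 2 as higher, against 28.1% and 25% of all tested genes. The median log2 fold change of the 12 was -0.66. The largest falls were those of *Dmrtb1*, a DM domain factor at the step from mitosis to meiosis, and of *Stra8*. *Dmrtb1* had 106, 90.3 and 81.3 CPM in WT and 20.5, 21.7 and 23.2 CPM in cKO testes, a log2 fold change of -2.09 (SE 0.114, edgeR adjusted p = 8.80e-06). *Stra8* had 123, 124 and 113 CPM in WT and 32.6, 33.0 and 28.6 CPM in cKO testes, a log2 fold change of -1.93 (SE 0.0848, adjusted p = 6.80e-06). *Stra8* is also the locus of the Cre knockin, so that allele dosage and genotype cannot be told apart for it. Over the 3 lists 7 of the 45 companion genes were called higher and 8 lower, against 4.15% and 10.9% of all tested genes. Without WT replicate 3 the companion genes called were 9 higher and 8 lower. The calls over all genes were then 2839, of which 31.1% were higher, against 2535 and 27.5% with all libraries. Scaled to Sertoli genes 0 were called higher and 22 lower, in the fit whose 5470 calls over all genes were 1.41% higher.

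**Figure D4:**
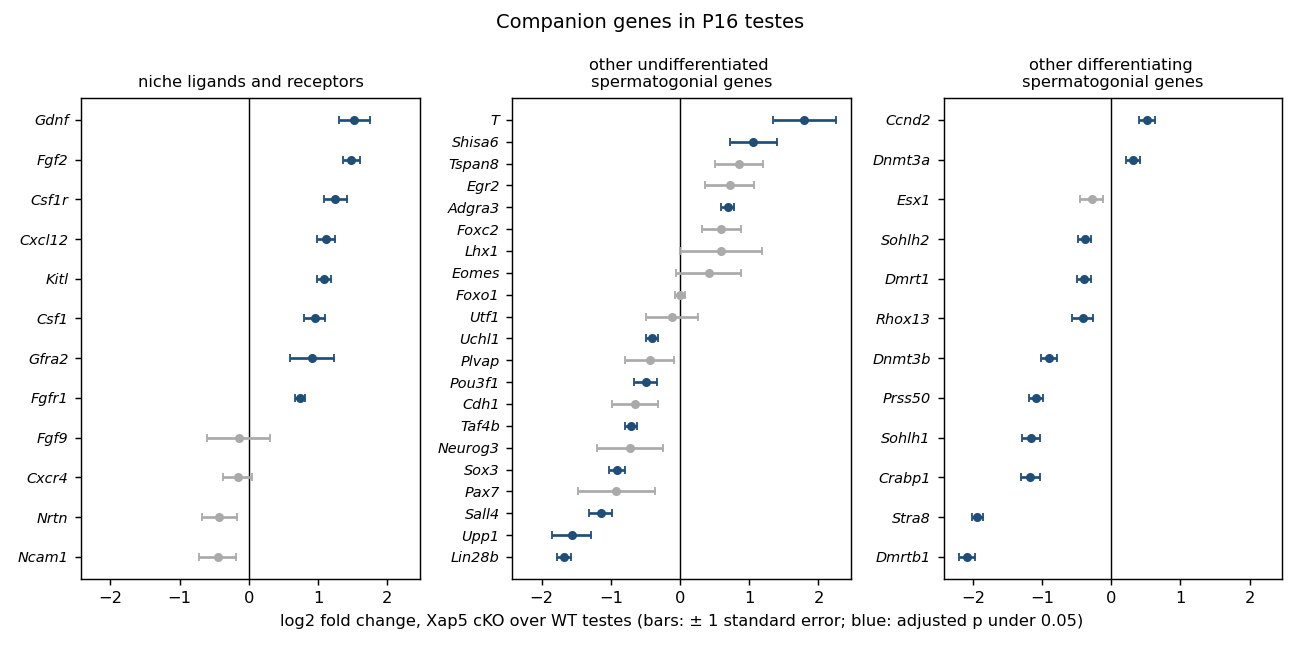
Log2 fold changes of Xap5 cKO over WT testes with bars of ± 1 SE for 45 companion genes in 3 lists, blue where the edgeR adjusted p-value was under 0.05. Niche ligands and receptors with blue points lie right of 0 (8 of 12), and 9 of 12 genes of differentiating spermatogonia lie left of 0 in blue.

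In mature sperm the 10 genes were measured at low levels, and none of the 8 that were tested passed in *Xap5l* KO sperm. Of the 20945 tested genes, 9.02% passed as higher and 3.07% as lower, and 7.59% and 1.27% were called with a fold change above 2. These shares changed strongly with the library left out. The 1856 calls over all genes became 2 without WT replicate 2 or 3, 3 without KO replicate 2 and 554 without KO replicate 1. They became 2261 without WT replicate 1 and 2845 without KO replicate 3. The 8 genes had a median log2 fold change of 0.39, against -0.08 over all tested genes. At an unadjusted p-value under 0.05 edgeR had 2 of the 8 as higher (*Gfra1* and *Ret*), both under 2-fold, and 0 as lower. DESeq2 passed 0 of the 8 after adjustment. Genes listed for other cells were also counted in the sperm preparations. The 5 genes of the leukocyte list summed to between 4303 and 4882 CPM in WT and between 2535 and 3127 CPM in KO libraries. *Cd52* was the most abundant of them, and which cells its RNA came from was not tested. The 5 mast cell genes summed to 52.0 to 110.5 CPM in WT and 28.1 to 65.8 CPM in KO libraries. Epididymal epithelium genes summed to between 3955 and 7289 CPM, led by *Crisp1*, while *Lcn5*, named after its values were seen, had 0 counts in 5 of 6 libraries. Genes of round spermatids summed to 83.8 to 120 CPM in WT and 190 to 360 CPM in KO libraries, and 5 of 5 were called higher. Those of pachytene spermatocytes summed to 1759 to 2806 CPM in WT and 3756 to 3899 CPM in KO libraries, and 4 of 7 were called higher. The part of these cells in the values below was not tested. Protamine 2 (*Prm2*), packed into sperm chromatin, led the list of elongating spermatid genes, whose sums ran from 22143 to 46566 CPM.

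*Kit* was the best measured of the 10 in sperm and differed least. It had 13.4, 14.9 and 13.5 CPM in WT and 15.7, 15.04 and 13.3 CPM in KO sperm. The groups overlapped, and the log2 fold change of 0.07 had a 95% interval of -0.34 to 0.49 (edgeR adjusted p = 0.802). Haploid germ cells make a shortened *Kit* transcript and mast cells carry the full receptor, forms which a count per gene does not distinguish.

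*Gfra1* was higher in each KO library than in each WT library, with 2.82, 1.95 and 1.83 CPM in WT and 4.28, 3.52 and 2.97 CPM in KO sperm. The gap between the nearest libraries was small, and the log2 fold change of 0.71 (95% interval 0.07 to 1.34) did not pass after adjustment (edgeR adjusted p = 0.119). *Ret* showed the same arrangement at 12, 16 and 28 counts in WT and 29, 41 and 54 counts in KO sperm, or 0.364, 0.380 and 0.604 CPM against 0.828, 0.740 and 0.927 CPM. Its log2 fold change was 0.87 (95% interval 0.01 to 1.73, edgeR adjusted p = 0.144). How many of all tested sperm genes had such an arrangement was not counted. Over the fits that left out 1 library the adjusted p-value of *Gfra1* reached 0.339 and that of *Ret* 0.366.

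*Id4*, *Etv5* and *Zbtb16* overlapped between the genotypes in sperm. *Id4* had 3.58 to 4.44 CPM in WT and 2.64 to 4.03 CPM in KO sperm, with a log2 fold change of -0.22 (95% interval -0.80 to 0.35). *Etv5* varied most among WT libraries, with 4.76, 10.3 and 14.0 CPM, against 8.79, 8.18 and 5.03 CPM in KO sperm. *Zbtb16* had 3.09 to 5.07 CPM in WT and 2.08 to 4.33 CPM in KO sperm, with a log2 fold change of -0.36 (95% interval -1.08 to 0.36).

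The remaining genes were close to the floor in sperm. *Lin28a* was counted 9, 10 and 9 times in WT and 8, 40 and 18 times in KO sperm, and *Bcl6b* 13, 10 and 12 times in WT and 23, 42 and 8 times in KO sperm. In both, the KO libraries were spread across the WT level, and the 95% intervals of the log2 fold changes ran from -0.36 to 2.09 for *Lin28a* and from -0.60 to 2.19 for *Bcl6b*. *Nanos3* was counted 0, 2 and 1 times in WT and 11, 1 and 9 times in KO sperm and was too low to be tested. *Nanos2* had 0 counts in all 6 libraries, which allows up to 3 counts or a level of up to 0.0515 to 0.0910 CPM, depending on the library, where this limit covers counting error only.

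**Figure D5:**
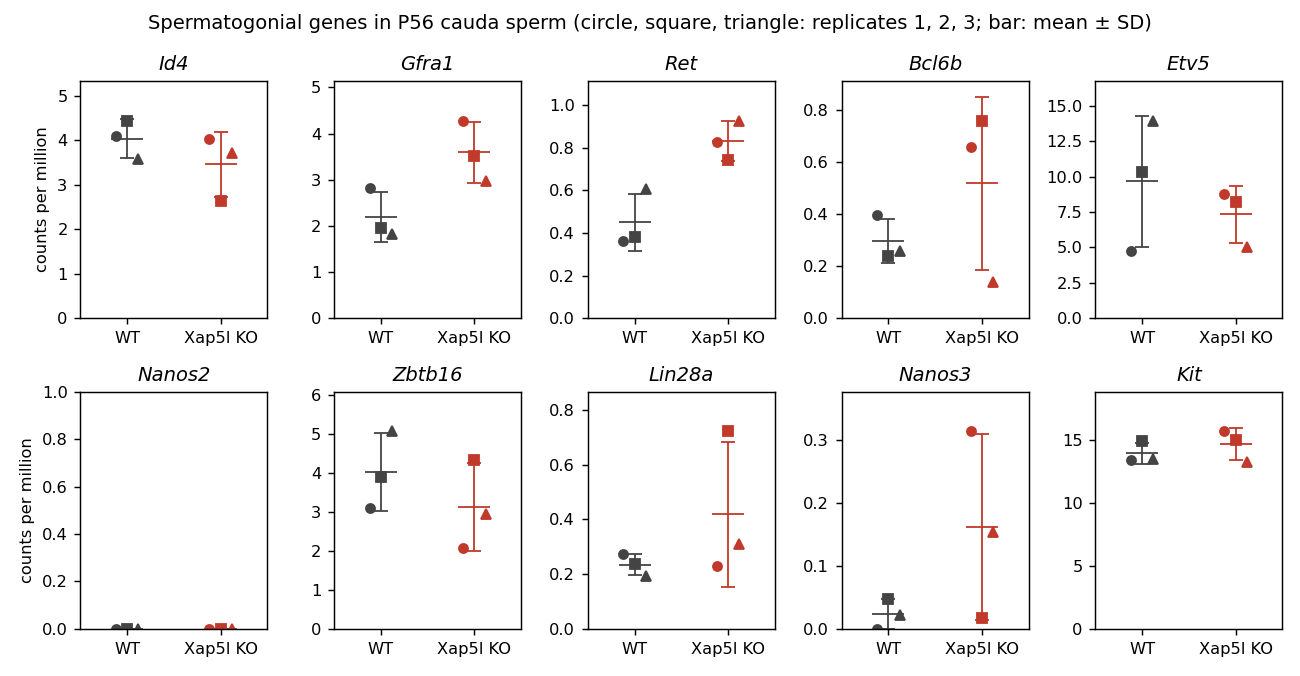
CPM of the 10 genes in each sperm library, with 1 panel per gene, each on its own axis from 0, and the mean ± SD of 3 libraries as a bar. Gfra1 and Ret are the tested genes whose Xap5l KO points all lie above the WT points, but neither passed the test. How many of all tested sperm genes lie this way was not counted. Kit is level at 13.3 to 15.7 CPM, and Nanos2 is at 0.

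Per kilobase of exon *Etv5* was first in WT sperm with a mean of 2.36 CPM per kb and *Kit* second with 1.56, with overlapping ranges, followed by *Id4* with 1.05, *Zbtb16* with 0.761 and *Gfra1* with 0.402. The other 5 genes were below 0.1 CPM per kb. In *Xap5l* KO sperm the first 3 kept their places, and *Gfra1* and *Zbtb16*, with 0.656 and 0.591 CPM per kb, overlapped in reverse order. The testis and sperm tables were normalized apart, so levels were not compared between them. The *Gfra1* log2 fold changes were 0.56 in *Xap5* cKO testes and 0.71 in *Xap5l* KO sperm, and those of *Lin28a* were -1.07 and 0.86. The deletions, tissues and ages differ, so these pairs were set side by side and not tested against each other.

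Of the 46 companion genes, 32 were tested in sperm and 0 were called in either direction by edgeR. Over all tested sperm genes 7.59% were called higher and 1.27% lower. Among those changed more than 2-fold, unadjusted edgeR p-values were under 0.05 for 1 higher, *Dmrtb1*, and 1 lower, *Eomes*, and DESeq2 called the same 2 genes after adjustment. Both are named after their values were seen. *Dmrtb1* had 123 ± 41.5 CPM in WT and 263 ± 108 CPM in KO sperm (SD, 3 libraries each), a log2 fold change of 1.10 (edgeR adjusted p = 0.0733). *Eomes*, which is also a factor of lymphocytes, had 0.786 ± 0.266 CPM in WT and 0.239 ± 0.133 CPM in KO sperm, a log2 fold change of -1.66 (edgeR adjusted p = 0.0594). *Gdnf* and *Kitl* overlapped between genotypes in sperm, at 0.426 ± 0.161 and 0.524 ± 0.254 CPM for *Gdnf* and 7.45 ± 3.36 and 4.52 ± 0.644 CPM for *Kitl*.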

How the data were processed

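Whole testes of P16 mice and cauda sperm of P56 mice were measured by RNA-seq in 12 libraries, grouped by their labels. Poly(A) RNA was selected and read from both ends. The submitters' processing notes name Trimmomatic 0.36, HISAT2 2.1.0 and GRCm38, and StringTie was used after mapping. The authors deposited raw counts, 1 file for each tissue. How reads were assigned to genes, including strand and multiple hits, is not given in the sources used here.

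Each table was fitted alone, with genotype as the only term: edgeR's filterByExpr, TMM and quasi-likelihood test, with Benjamini-Hochberg adjustment over all tested genes (16821 in testes, 20945 in sperm). The SE is the size of the log2 fold change over the square root of its F statistic, and 95% intervals use the t distribution of that fit. CPM used TMM-scaled library sizes, and levels per kb the merged exons of GENCODE M21 (GRCm38). No pseudocount was added to CPM. Genes named were the 10 spermatogonial genes, *Fam50a* and *Fam50b*, *Gdnf* and *Kitl*, up to 8 called companion genes per tissue with the largest change and at least 1 CPM, and the most abundant gene of a marker list. The genes and lists were chosen with earlier results of these data known. The series description calls the replicates biological. Intervals and limits on counts cover counting error only where they are given for a single library. The tests were run on simulated data first.

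Alternatives were no filter, at least 10 counts in every library, RLE size factors, library size alone, scaling to 10 Sertoli genes (testes), DESeq2, a replicate block, no fold change threshold, and each library left out. Software: R 4.3.3, edgeR 4.0.16, DESeq2 1.42.0, Python 3.11.15, pandas 2.3.3 and matplotlib 3.10.9.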

Additional observations from a re-analysis of the deposited data

How the results depend on the processing

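In testes, the directions of *Id4*, *Etv5*, *Zbtb16*, *Lin28a*, *Kit* and *Gfra1* held under every filter, TMM, RLE or library size scaling, DESeq2, the replicate block and each library left out. Scaling to Sertoli genes turned *Gfra1* to -0.16 and *Bcl6b* to -0.52 (log2 fold changes), took the adjusted p of *Etv5* to 0.155, raised the number called lower from 2 to 5 of the 10, changed the companion genes called from 7 higher and 8 lower to 0 and 22, and the calls over all genes from 2535 to 5470, of which 1.41% were higher against 27.5% with TMM. This scaling shifted fold changes downward together by construction, with the median log2 fold change over all tested genes moving from -0.01 to -0.73. Without a fold change threshold 2 of the 10 were higher and 4 lower, 13 and 16 companion genes, and 8936 of all genes. Over the fits without 1 library *Ret* ranged from -0.23 to 0.13, positive without WT replicate 3 (0.13) and cKO replicate 1 (0.046), and *Nanos3* from -0.51 to 0.055, positive without WT replicate 3. Neither had passed. With each testis library left out, 0 to 1 of the 10 were called higher (1 without WT replicate 1 or cKO replicate 1) and 1 to 2 lower (1 without WT replicate 3).

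In sperm, none of the 8 tested genes passed under any alternative that gave them a value. *Lin28a* and *Bcl6b* had none with at least 10 counts in every library. Companion genes called higher numbered 1 with no filter, with library size alone and with DESeq2, and companion genes called lower 1 with DESeq2. With each library left out they numbered 0 to 1 in each direction, being 1 higher without *Xap5l* KO replicate 3 and 1 lower without WT replicate 1 or *Xap5l* KO replicate 3. The calls over all sperm genes ranged from 2 to 2845 in these fits against 1856 with all libraries. They numbered 2 without WT replicate 2 or 3, 3 without KO replicate 2 and 554 without KO replicate 1. They numbered 2261 without WT replicate 1 and 2845 without KO replicate 3, so the sperm calls changed strongly with the library left out.

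Deviations of same-numbered replicates correlated across genes by -0.01 to 0.01 in testes and by -0.08 to 0.15 in sperm. In sperm the highest value, 0.178, was between WT replicate 3 and KO replicate 2, so the numbers were not treated as pairs. Sperm replicate 1 stood apart in both genotypes, with TMM factors of 0.821 in WT and 0.808 in KO. The other sperm libraries had 1.08 to 1.12, and a source shared across genotypes was not tested. With the replicate block the calls over all genes were 2443 in testes and 1294 in sperm, and *Gfra1* in testes stayed at an adjusted p of 0.0455. Low counts limited *Nanos2* (11 to 37 per library) in testes and *Bcl6b* (8 to 42) and *Lin28a* (8 to 40) in sperm.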
